A study of Mus musculus with 30 samples.

Results

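The dual-specificity MAP kinase phosphatases described here are 9 genes, Dusp1, Dusp4, Dusp5, Dusp6, Dusp7, Dusp8, Dusp10, Dusp14 and Dusp16, of the 35972 genes present in both RNA tables of the study. They were chosen by their measured RNA values in these same libraries, so the counts of members called below and their changes are a description of the members and not a test of the family. Chromatin sites were included where the authors' annotation gave a member as the nearest gene. The cells were primary mouse fibroblasts from tail tendon, all labelled wildtype, grown in medium with 10% serum and treated in medium with 0.1% serum. For RNA, 3 libraries were made from cells given the solvent DMSO, 3 from cells given blebbistatin at 10 µM and 3 from cells given Y27632 at 30 µM. The same 3 treatments were profiled by ATAC-seq, a transposase assay of open chromatin, with 3 libraries each. A further 12 genomic DNA libraries, 3 per group, came from cells given doxycycline at 10 ng/mL, blebbistatin at 10 µM, both drugs, or neither drug (labelled DMSO). The labels do not say what doxycycline switched on, and the treatment times are not given in the sources used here.

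Blebbistatin blocks the motor activity of nonmuscle myosin II. Y27632 blocks protein kinases instead, and both agents lower the contractile tension of fibroblasts. MAP kinases (ERK, JNK and p38) become active when a threonine and a tyrosine in their activation loop are phosphorylated, and the dual-specificity phosphatases remove both phosphates. Several of these phosphatase genes are themselves induced by MAP kinase signalling, which makes them negative feedback regulators of the pathway. Yap and Taz, named in the study's title, are transcriptional coactivators that respond to tension and act through TEAD transcription factors.

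Promoters of 3 members and 3 short TEAD matches are printed first, since the values below return to them. Of the 9 genes, 8 had a promoter window in the RefSeq table for GRCm38.p6, each from 250 bases before to 50 bases after a transcript start, and the parts before the start are shown, 5′ to 3′ in the direction of transcription. The palindrome TGACGTCA, the cAMP response element, was found in 2 of the 8 windows and in 1.79% of all 32851 windows. Those 2 were Dusp1, with 1 match that begins 143 bases before the start, and Dusp8, with matches 107 and 63 bases before it. Both genes fell with blebbistatin and rose with Y27632. Whether the motif has a part in these changes was not tested. The share of windows with it among other genes of this pattern was not computed. Dusp10 had no match. Its Y27632 libraries lay above its DMSO libraries. Its blebbistatin libraries lay below them by a narrow margin, a change not called in limma (adjusted p = 0.0891). The CArG box, the serum response factor motif, was found in the window of Dusp5 alone among the 8, at 82 and 72 bases before the start, and in 1.63% of all windows. The Dusp5 stretch lies within a chromatin site that was higher with doxycycline. Capitals mark the cAMP response elements in Dusp1 and Dusp8 and the 2 adjoining CArG boxes in Dusp5.
Dusp1, chr17:26508473-26508722, minus strand: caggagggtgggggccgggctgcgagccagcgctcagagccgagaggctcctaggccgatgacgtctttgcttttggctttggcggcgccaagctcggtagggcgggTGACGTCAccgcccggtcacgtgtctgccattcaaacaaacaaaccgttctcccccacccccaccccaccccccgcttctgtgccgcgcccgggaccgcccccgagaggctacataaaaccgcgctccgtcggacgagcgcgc
Dusp8, chr7:142095285-142095534, minus strand: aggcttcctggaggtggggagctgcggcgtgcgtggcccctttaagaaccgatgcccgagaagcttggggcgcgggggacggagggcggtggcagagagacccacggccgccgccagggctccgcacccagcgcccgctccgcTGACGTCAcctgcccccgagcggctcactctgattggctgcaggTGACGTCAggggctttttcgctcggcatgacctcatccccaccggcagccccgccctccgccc
Dusp5, chr19:53528895-53529144, plus strand: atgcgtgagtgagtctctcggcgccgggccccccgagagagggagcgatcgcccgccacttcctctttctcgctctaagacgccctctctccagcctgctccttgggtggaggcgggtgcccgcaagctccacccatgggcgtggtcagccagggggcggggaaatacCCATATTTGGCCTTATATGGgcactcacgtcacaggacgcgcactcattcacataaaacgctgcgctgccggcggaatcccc

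The other motifs searched on both strands had no match in the 8 windows: TGAGTCA (AP-1, 5.20% of all windows), CCGGAAGT (ETS, 3.89%) and GGAATG (TEAD, 14.7%). A match is a string of letters and not a bound site, and the absence of one says only that these letters are not in that window. None of these spellings contains another. The windows of the 8 members held from 56.4% to 77.2% G and C in their upstream part, against a median of 52.4% over all windows. It was 68.4% for Dusp1 and 71.6% for Dusp8. The motif shares over all windows were not matched for G and C.

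For Dusp14 the authors' ATAC table itself lists TEAD motif matches inside the 2 sites that were lower with blebbistatin, and these matches are shown with the core in capitals, on the strand as the table prints them.
Site chr11:84079959-84080314, offset 137: ccaCATTCCa
Site chr11:84080394-84080643, offset 138: tcaCATTCCa
Site chr11:84080394-84080643, offset 165: tGGAATGcca
At least 1 such match was listed for 62.2% of the 970 sites of that ATAC list and at least 2 matches for 20.6%, so a match was the usual state of a listed site.

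The RNA libraries held between 23375386 and 37061737 reads in genes. Libraries of a group differed from one another by more than counting noise, but the labels do not say that they came from separate cultures or animals, so the p-values measure the spread between these libraries, which may be technical. All 10 tendon fibroblast markers were present, with summed normalised counts of 582271 to 686816 per library, while Myod1 was at 0 and the 4 muscle markers together reached at most 10.8. The 5 macrophage and blood markers (Ptprc, Cd68, Adgre1, Csf1r, Lyz2) were higher under both inhibitors, with sums of 5878 to 6511 in DMSO, 8450 to 9489 in blebbistatin and 8562 to 9758 in Y27632. None of the 5 was at 0. The sum of 4 endothelial markers was 3335 to 3398 in DMSO, 2113 to 2375 in blebbistatin and 2989 to 3191 in Y27632, nearly all of it Tek, with Pecam1 at no more than 14.5. Cdh5 did not fall with Tek, at 61.7 to 76.6 in DMSO, 81.0 to 92.7 in blebbistatin and 85.1 to 91.4 in Y27632. Kdr did not fall either, at 10.5 to 18.6, 19.7 to 27.1 and 16.7 to 23.3 in the same order. The sum of 3 cartilage markers, mostly Sox9, was 144 to 175 in DMSO, 221 to 241 in blebbistatin and 227 to 234 in Y27632. The sum of 3 adipocyte markers, nearly all Fabp4, was 276 to 316 in DMSO, 276 to 321 in blebbistatin and 185 to 221 in Y27632, with Adipoq and Plin1 at or near 0. For 3 pericyte markers the sum was 2150 to 2391, 2463 to 2757 and 2393 to 2958 in the same order. Of these, Rgs5 was lower in blebbistatin (63.2 to 73.7) than in DMSO (84.7 to 123). For 3 Schwann markers it was 122 to 146, 162 to 174 and 144 to 174. The 3 keratinocyte markers together reached at most 7.76. The part of such cells in the results was not tested, and in bulk RNA a change in the share of a cell type and a change in RNA per cell cannot be told apart.

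With blebbistatin, 8 of 9 members were called against DMSO, 4 higher and 4 lower, beside 53% of the 14882 genes tested (26.1% higher and 26.9% lower). With Y27632, 9 of 9 were called, 7 higher and 2 lower, beside 35.9% of the 14833 genes tested (18.1% higher and 17.8% lower). The median log2 change of the members was -0.17 with blebbistatin and 0.88 with Y27632, while the median of all genes tested was 0.00 in both comparisons. A call is an adjusted p below 0.05 in limma, fitted to log2(normalised count + 1) over all genes with a mean of at least 10. All 9 members passed that filter. The 2 comparisons share the 3 DMSO libraries. Because the RNA values chose the members, nothing is read from these shares.

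**Figure D1:**
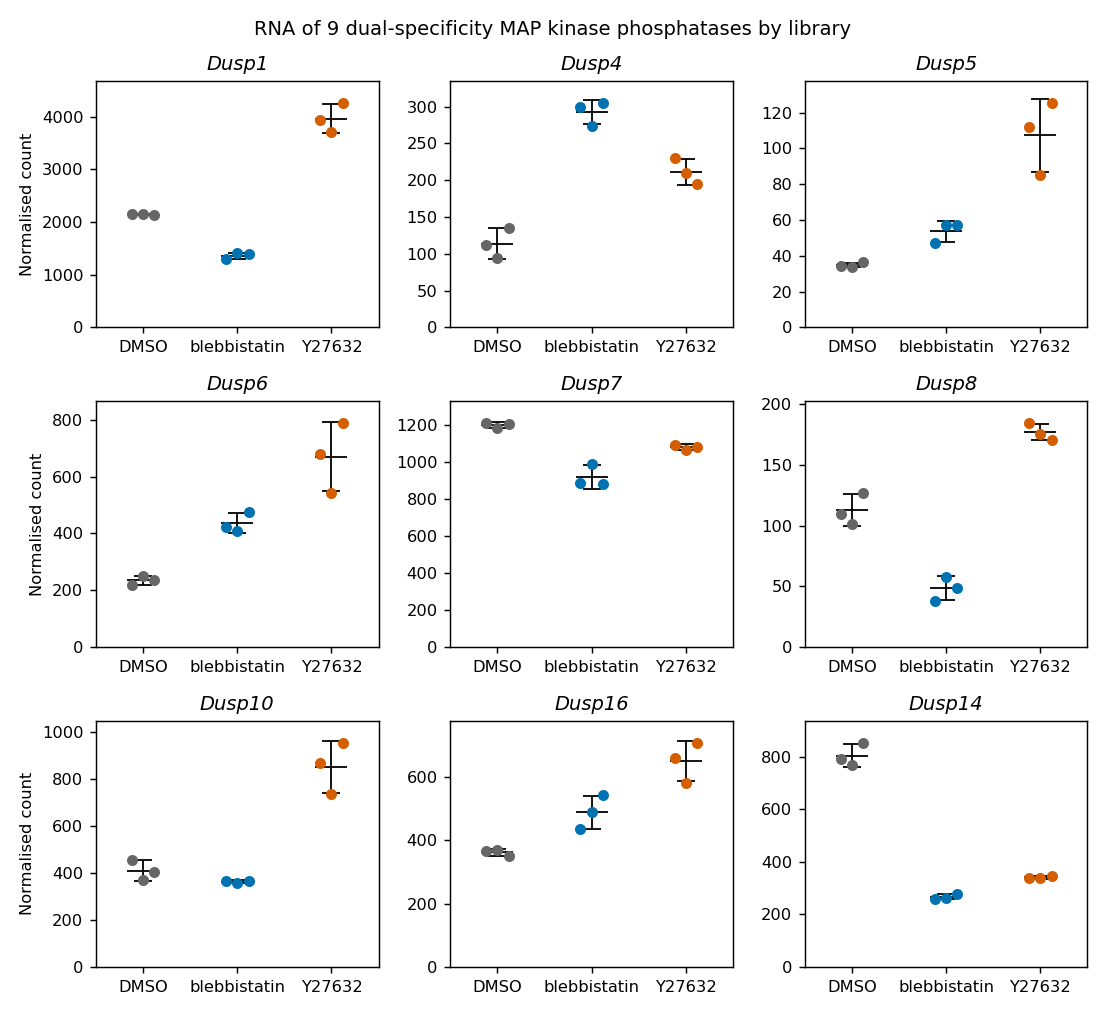
Normalised count of each phosphatase gene (vertical axes, each starting at 0) in the 9 RNA libraries, scaled together, with 3 points per treatment, a line at the group mean and error bars of 1 SD. Dusp1 and Dusp8 have their lowest values in blebbistatin and their highest in Y27632, and Dusp14 is lower in both inhibitors.

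Among the inducible nuclear phosphatases, Dusp1, an immediate-early gene whose product acts on p38, JNK and ERK, moved in opposite directions with the 2 inhibitors. Its normalised counts, from 9 libraries scaled together, were 2151, 2157 and 2137 in DMSO, 1295, 1406 and 1385 in blebbistatin and 3944, 3702 and 4254 in Y27632. The 3 groups did not overlap, with blebbistatin lowest and Y27632 highest. Dusp1 fell by 0.66 ± 0.042 (SE) on the log2 scale with blebbistatin and rose by 0.88 ± 0.045 with Y27632.

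Dusp4, a nuclear phosphatase induced by growth factors, rose with both agents. Its counts were 112, 94.0 and 136 in DMSO, 300, 274 and 304 in blebbistatin and 230, 209.6 and 195 in Y27632. All 6 inhibitor libraries were above all DMSO libraries, and the blebbistatin libraries were above those of Y27632. The log2 change was 1.37 ± 0.127 with blebbistatin and 0.90 ± 0.131 with Y27632. Dusp4 was the only member with its highest group mean in blebbistatin.

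Dusp5, a nuclear phosphatase selective for ERK, was measured from few reads, 29 to 33 per DMSO library. Its normalised counts were 34.5, 33.7 and 36.3 in DMSO, 47.1, 57.2 and 57.2 in blebbistatin and 112, 85.1 and 125 in Y27632. The groups did not overlap, and Y27632 replicate 2 was the lowest of its group. The log2 change was 1.58 ± 0.170 with Y27632 and 0.61 ± 0.178 with blebbistatin. The blebbistatin call had a limma adjusted p of 0.0126 and did not hold under DESeq2 run on the recovered reads, where the adjusted p was 0.0560. In the authors' deposited table the adjusted p of Dusp5 with blebbistatin was 0.0841.

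Of the cytoplasmic phosphatases that are selective for ERK, Dusp6 rose and its close relative Dusp7 fell. Dusp6, a standard feedback target of ERK signalling, had counts of 218, 249.5 and 237 in DMSO, 424, 409 and 475 in blebbistatin and 681, 544 and 788 in Y27632. The order of the groups was the same as for Dusp5, with no overlap. The log2 change was 0.89 ± 0.084 with blebbistatin and 1.50 ± 0.110 with Y27632. Dusp7 had 1211, 1185 and 1208 normalised counts in DMSO, 889, 992 and 880 in blebbistatin and 1095, 1068 and 1084 in Y27632. It was lower in every inhibitor library, by -0.39 ± 0.053 on the log2 scale with blebbistatin and -0.15 ± 0.040 with Y27632. The Y27632 change of Dusp7 was the smallest called among the members (limma adjusted p = 0.0115), and in the authors' deposited table its adjusted p was 0.0565.

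The phosphatases that act mainly on JNK and p38, Dusp8, Dusp10 and Dusp16, each had their highest group in Y27632. Dusp8 had normalised counts of 110, 101 and 127 in DMSO, 38.3, 58.0 and 48.5 in blebbistatin and 184, 176 and 171 in Y27632, from as few as 35 reads in a blebbistatin library. It fell with blebbistatin and rose with Y27632, as Dusp1 did, with log2 changes of -1.22 ± 0.175 and 0.65 ± 0.112. The groups did not overlap.

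Dusp10 had 457, 370.2 and 405 normalised counts in DMSO, 365, 356 and 368.4 in blebbistatin and 870, 736 and 955 in Y27632. The Y27632 libraries stood well above the rest, whereas the highest blebbistatin library and the lowest DMSO library nearly met. Dusp10 rose by 1.05 ± 0.093 on the log2 scale with Y27632. With blebbistatin its change of -0.17 ± 0.081 missed the threshold in limma (adjusted p = 0.0891), without DMSO replicate 2 it passed, at -0.25 with an adjusted p of 0.0287, and without DMSO replicate 1 it was -0.096 with an adjusted p of 0.338.

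Dusp16 had normalised counts of 366, 370.2 and 349.7 in DMSO, 436, 488 and 541 in blebbistatin and 659, 581 and 706 in Y27632. The 3 groups were again separate, in the order DMSO, blebbistatin, Y27632. The log2 change was 0.42 ± 0.081 with blebbistatin and 0.84 ± 0.073 with Y27632.

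Dusp14, a small phosphatase without the amino-terminal kinase-binding domain of the typical family members, fell the most. Its normalised counts were 791, 769 and 853 in DMSO, 259, 264 and 279 in blebbistatin and 338.0, 337.7 and 347 in Y27632. All 6 inhibitor libraries were far below the lowest DMSO library, with blebbistatin below Y27632 and no overlap between any groups. The log2 change was -1.59 ± 0.066 with blebbistatin, which is 0.333 times the DMSO level, and -1.23 ± 0.059 with Y27632, which is 0.425 times the DMSO level.

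**Figure D2:**
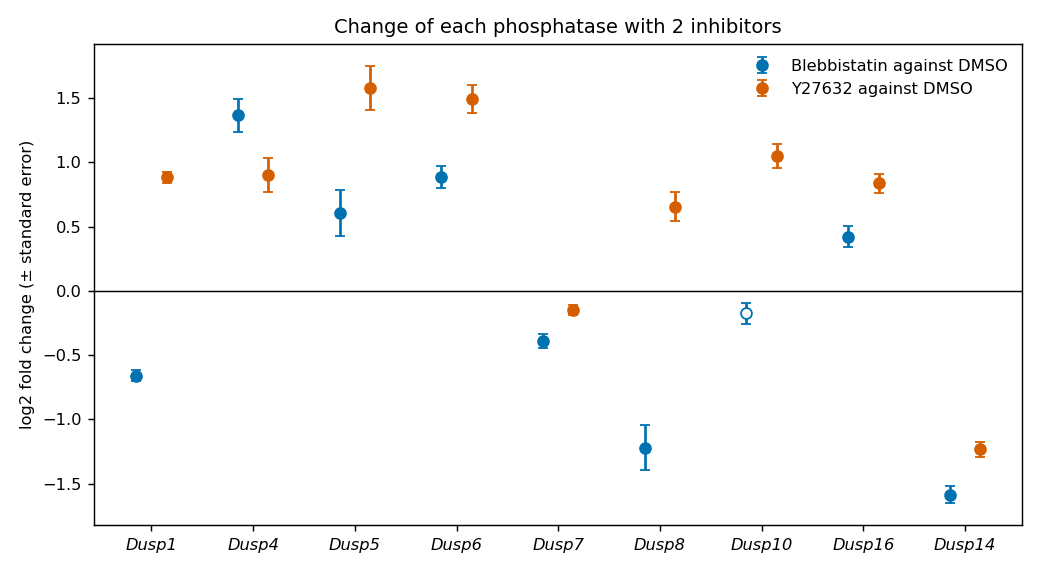
Log2 fold change against DMSO (vertical axis) of each phosphatase gene with blebbistatin and with Y27632, 3 libraries per group, with bars of 1 standard error and open points where the adjusted p was 0.05 or above. The points of Dusp1 and Dusp8 lie on opposite sides of 0 and those of Dusp14 lie lowest for both agents.

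The 2 inhibitors were compared directly in 1 edgeR quasi-likelihood fit of the 9 libraries. In it 9 of 9 members were called, Dusp4 with more RNA under blebbistatin and the other 8 with less, beside 53.1% of the 14955 genes tested (26.9% higher and 26.2% lower). The median difference, blebbistatin minus Y27632, was -0.61 over the members and 0.01 over all genes tested, on the log2 scale. The difference was widest for Dusp8, at -1.85 ± 0.143, followed by Dusp1 at -1.53 ± 0.047 and Dusp10 at -1.22 ± 0.090. It was narrowest for Dusp7, at -0.22 ± 0.049, and for Dusp14, at -0.34 ± 0.065. Dusp4 was the exception in direction, at 0.47 ± 0.105. The agents were used at different concentrations and act on different proteins, so these differences compare the 2 treatments as given and do not rank the agents at matched doses.

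Y27632 replicate 2 lay below its group mean for 9 of 9 members, with a median deviation of -0.10 on the log2 scale, and blebbistatin replicate 3 lay above its group mean for 8 of 9. The same count over all genes was not made, so whether these offsets are particular to the members was not tested. Without Y27632 replicate 2 the 9 calls with Y27632 remained, and Dusp5 and Dusp10 changed by 1.74 and 1.15. Over the 3 group means the log2 range was widest for Dusp8, at 1.87, then Dusp14 and Dusp5, both at 1.58, and narrowest for Dusp7, at 0.39. The genes with the pattern most like that of Dusp8 over the 9 libraries, among 11445 genes with a mean of at least 100, were Atp11b, Dapk2, Zc3h18, Slc35e1 and Ccl7, each with a Pearson correlation of 0.99. The points of such a correlation fall into 3 treatment groups, and 194 genes reached at least 0.95. A correlation does not measure the size of a change. With blebbistatin and Y27632, Dusp8 changed by -1.22 and 0.65 on the log2 scale, Dapk2 by -0.99 and 0.48 and Ccl7 by -0.86 and 0.67. The changes were smaller for Slc35e1 (-0.38 and 0.19), Zc3h18 (-0.22 and 0.15) and Atp11b (-0.15 and 0.09).

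Outside the 9 members, Dusp9, which like Dusp6 and Dusp7 is cytoplasmic and selective for ERK, had between 41.2 and 62.4 normalised counts in the 9 libraries and was not called, with log2 changes of 0.04 with blebbistatin and -0.33 with Y27632. Dusp2, an ERK- and p38-directed phosphatase of immune cells, had between 0 and 3 reads in each library, too few to be tested. Of 26 other dual-specificity phosphatases, which mostly act on substrates other than MAP kinases, 20 were tested against DMSO. With blebbistatin 11 of the 20 were called, 5 higher and 6 lower, with a median log2 change of 0.01, beside 53% of all genes called. With Y27632 5 of the 20 were called, 3 higher and 2 lower, with a median of -0.02, beside 35.9% of all genes called. None of the 20 reached a log2 change of 1 in either direction.

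The substrates of these phosphatases are MAP kinases, but the list counted here also holds atypical ones such as Mapk4. Of 13 kinase genes, 9 were called with blebbistatin (4 higher and 5 lower), and 4 of the 12 tested were called with Y27632 (3 higher and 1 lower), beside 53% and 35.9% of all genes. Mapk3, which encodes ERK1, rose by 0.36 on the log2 scale with blebbistatin and by 0.15 with Y27632, both called. The kinase genes that changed by more than 1 with blebbistatin were Mapk4, an atypical MAP kinase, which rose by 1.54 ± 0.151 (0.43 with Y27632, not called), and Mapk10, the JNK isoform typical of neurons, which rose by 1.58 ± 0.329. Mapk10 had at most 30.3 normalised counts in a library.

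Of 20 genes of the cascade upstream of ERK, 15 were called with blebbistatin, 4 higher and 11 lower, and 10 with Y27632, 6 higher and 4 lower, against the same shares of all genes (53% and 35.9%). Rras2, a Ras-related GTPase, fell by 1.41 ± 0.046 with blebbistatin and by 0.30 ± 0.042 with Y27632. Rasgrp3, a Ras exchange factor, fell by 1.02 ± 0.150 with blebbistatin and by 0.97 ± 0.156 with Y27632. Of 19 tested genes upstream of JNK and p38, 12 were called with blebbistatin (8 higher, 4 lower) and 10 with Y27632 (3 higher, 7 lower). Over all genes 26.1% were higher and 26.9% lower with blebbistatin, and 18.1% higher and 17.8% lower with Y27632. Map2k6, a kinase that activates p38, rose by 1.05 ± 0.102 with blebbistatin and fell by 0.29 ± 0.107 with Y27632. Map3k5, a stress-activated kinase, rose by 1.03 ± 0.162 with blebbistatin, and its Y27632 change of 0.38 was not called. The Gadd45 stress proteins, which bind the kinase Map3k4, did not move as 1 group with blebbistatin. Gadd45a rose by 1.89 ± 0.075 (and by 0.23 ± 0.078 with Y27632), whereas Gadd45b fell by 1.44 ± 0.073 and Gadd45g fell by 1.55 ± 0.081. With Y27632 Gadd45b and Gadd45g fell too, by 1.31 ± 0.060 and 1.23 ± 0.050.

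Genes known to rise with ERK signalling were higher in most cases with Y27632. Of 23 such genes, 19 were called with Y27632, 18 higher and 1 lower (Ccnd1), with a median log2 change of 1.16. Over all genes tested 35.9% were called with Y27632, 18.1% higher and 17.8% lower. With blebbistatin 18 were called, 14 higher and 4 lower (Spry1, Myc, Emp1 and Ccnd1), with a median of 0.25. The share of all genes called with blebbistatin was 53%, with 26.1% higher and 26.9% lower. Directly compared by edgeR, 20 of the 23 differed, of which 4 had more RNA under blebbistatin and 16 had more under Y27632, with a median of -0.85. In that comparison 53.1% of all genes were called, 26.9% higher and 26.2% lower under blebbistatin. Like the members, this list was drawn up with earlier results of these data known.

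Egr1, an immediate-early transcription factor, had 1019, 699.7 and 869 normalised counts in DMSO, 2456, 2814 and 3635 in blebbistatin and 4750, 4580 and 5392 in Y27632. It rose with both agents, by 1.78 ± 0.137 and 2.52 ± 0.102 on the log2 scale. Egr3 rose by 1.35 ± 0.142 and 2.77 ± 0.102, and Egr2 by 1.02 ± 0.131 and 2.50 ± 0.081, in the same order. Phlda1 rose by 1.53 ± 0.090 and 1.84 ± 0.129. The 6 inhibitor libraries were all above the DMSO libraries for Egr1.

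Spry1, a feedback inhibitor of receptor signalling to ERK, moved in opposite directions. Its normalised counts were 1091, 1064 and 1029 in DMSO, 561, 617 and 651 in blebbistatin and 2488, 2347 and 2667 in Y27632. It fell by 0.80 ± 0.060 on the log2 scale with blebbistatin and rose by 1.24 ± 0.048 with Y27632. Myc, the growth-regulating transcription factor, changed by -0.56 and 0.68. Hbegf, a ligand of the EGF receptor, rose by 1.79 ± 0.073 with Y27632, and its blebbistatin change of 0.17 was not called. Spry4, Spry2, Fos, Fosl1, Lif, Ier2 and Ier3 also rose with Y27632, by between 1.16 (Ier2 and Ier3) and 1.85 (Spry4).

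**Figure D3:**
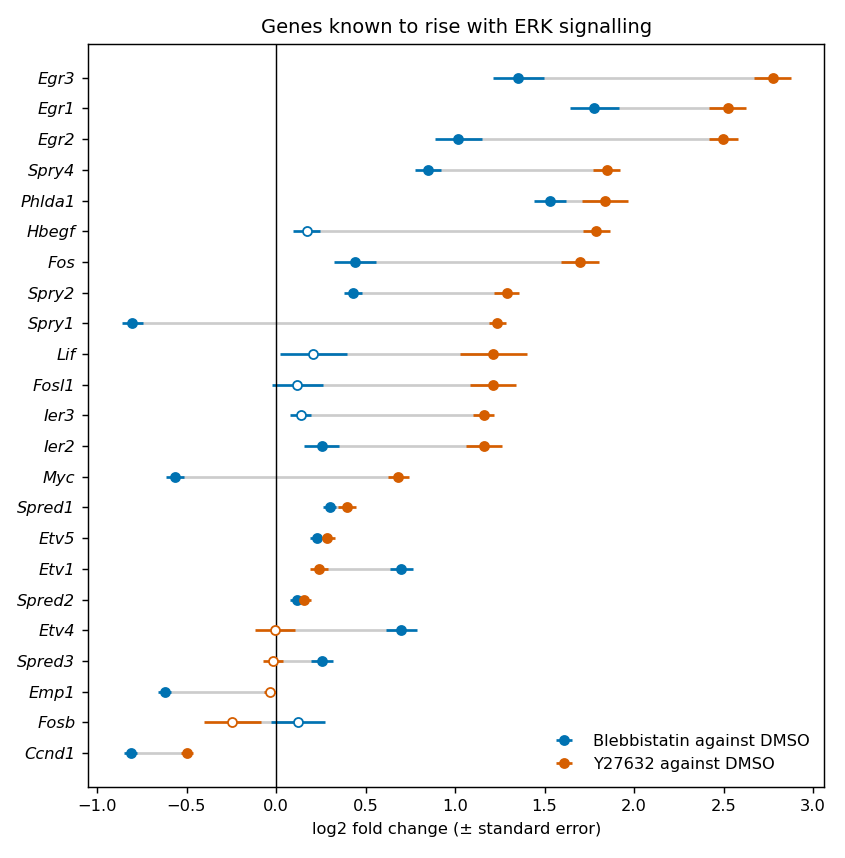
Log2 fold change against DMSO (horizontal axis) of 23 genes known to rise with ERK signalling, with blebbistatin and with Y27632, 3 libraries per group, with bars of 1 standard error and open points where the adjusted p was 0.05 or above. Most Y27632 points lie to the right of the blebbistatin points, and Spry1 and Myc lie on opposite sides of 0.

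In the ATAC-seq lists, Dusp14 was the 1 member with listed sites. The blebbistatin list held 2 Dusp14 sites, both lower, beside 98.2% lower sites among the 970 listed and 3.55% of the genes tested in RNA with any site in that list. The first, chr11:84079959-84080314, had a deposited log2 group mean of 5.46 with blebbistatin and 6.88 with DMSO, a log2 fold of -1.42 with an FDR of 0.0412 in the authors' deposited table. The second, chr11:84080394-84080643, had 4.98 and 6.61, a log2 fold of -1.63 with an FDR of 0.00713. Both lie in introns of the neighbouring gene Tada2a, 11780 and 12162 bases upstream of the Dusp14 start, and hold the TEAD matches printed above. At an FDR of 0.01 the second site alone remains.

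The Y27632 list held 1 Dusp14 site, the same chr11:84079959-84080314, with deposited log2 group means of 5.46 and 6.79, a log2 fold of -1.33 and an FDR of 0.00783 in the authors' deposited table. In that list 85% of 207 sites were lower, and 0.867% of the genes tested in RNA had a site. The blebbistatin and Y27632 lists share their DMSO libraries. The other 8 members had no site in either ATAC list, which holds only sites that the authors selected.

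In the experiment with doxycycline, 8 of 9 members had a site in the list of doxycycline against neither drug, and Dusp8 had none. Its 19 member sites were all higher with doxycycline, beside 95.8% higher sites among the 7613 listed and 25% of the genes tested in RNA with any site. The deposited log2 folds ran from 1 to 1.89. The reference column of this list is headed as blebbistatin without doxycycline, but its values at 13 sites shared exactly with another list differed by -0.13 (SD 0.0044) from the neither-drug group and by 1.12 (SD 0.184) from the group in the heading. It is therefore read as neither drug, as the sample labels assign it.

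Of the 19 sites, 3 were annotated as promoters, beside 18.7% of all sites in the list. They were at Dusp5 (chr19:53528734-53529490, log2 fold 1.02), Dusp14 (chr11:84068237-84068488, 1.03) and Dusp16 (chr6:134792576-134792919, 1.16). The Dusp5 site covers all 250 promoter bases printed above. A further pair of sites, chr11:84079973-84080186 and chr11:84080241-84080674, overlap the intronic Tada2a region where the Dusp14 ATAC sites lie, and their log2 folds with doxycycline were 1.27 and 1.16. The first lies wholly inside the ATAC site listed as lower with both inhibitors, and the second covers the whole of the other ATAC site. The single sites of Dusp1 (chr17:26488753-26488997, 1.56), Dusp7 (chr9:106378033-106378404, 1.24) and Dusp4 were intergenic, as were the sites with the greatest fold of Dusp5 (chr19:53557340-53557540, 1.42), Dusp6 and Dusp10.

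The 9 members had 7 sites in the list of blebbistatin with doxycycline against doxycycline alone, 5 for Dusp10, 1 for Dusp4 and 1 for Dusp6. All 7 were lower, beside 99.8% lower sites among the 6346 listed and 17.9% of the genes tested in RNA with any site. This list and the doxycycline list share the doxycycline group, so their folds are given side by side only. The Dusp4 site chr8:34763838-34764081, 43650 bases upstream of the start, had 1.56 with doxycycline and -1.21 when blebbistatin was added. The Dusp6 region chr10:99297703-99298154, 34698 bases downstream, had 1.30 and -1.14. The Dusp10 site chr1:184227647-184227792, 193339 bases downstream, had 1.89 and -1.29, and the Dusp10 region that starts at chr1:184084970 had 1.08 and -1.43.

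For Dusp10 all 5 sites in this list lay within or beyond the gene, from 27225 to 193339 bases downstream of the start. No member had a site in the list of blebbistatin without doxycycline, which held 1231 sites, beside 4.44% of the genes tested in RNA with any site, so nothing is read from this count of 0. The 2 Dusp14 sites of the blebbistatin ATAC list were thus not listed for Dusp14 again, with or without doxycycline. A site missing from a list of selected sites is not shown to be unchanged. These lists give group means without values per library, so no spread between libraries could be computed for any site, and the depth behind the values is unknown.

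**Figure D4:**
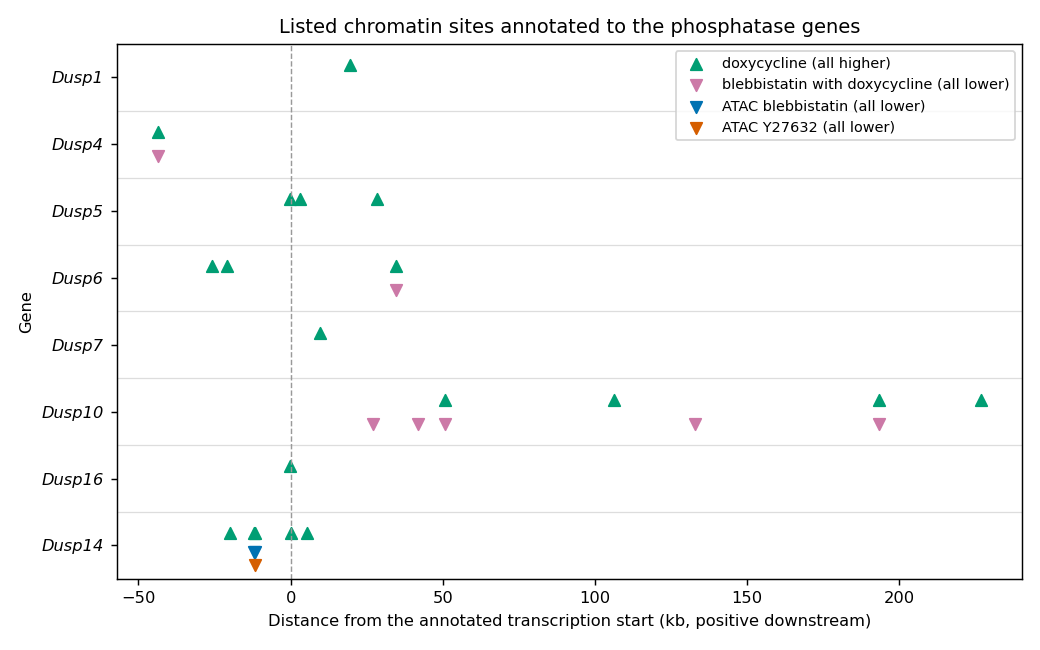
Position of each listed chromatin site relative to the annotated transcription start of its phosphatase gene (horizontal axis, kb), with 1 row per gene, upward triangles for higher and downward triangles for lower sites and 1 colour per list. Doxycycline sites are spread over 8 genes, the blebbistatin with doxycycline sites lie at Dusp4, Dusp6 and Dusp10, and the ATAC sites lie upstream of Dusp14.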

How the data were processed

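RNA, ATAC-seq and doxycycline-experiment libraries of mouse tail tendon fibroblasts were analysed from the authors' deposited tables. Per the submitters' processing notes, the build was mm10 and the tools were HISAT2, Picard, featureCounts, DESeq2, Bowtie2, SAMtools, MACS2, DiffBind and HOMER. The annotation of genes and the strand setting are not given in the sources used here.

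The deposited RNA signal is a normalised count, a whole read count divided by 1 size factor per library, and 100% of positive values came out whole at a tolerance of 0.001. The 2 RNA tables were scaled separately, and their DMSO reads were identical over 35972 genes. The authors' deposited log2 fold changes and p-values are quoted only where named. Deposited site tables give log2 group means, log2 folds and FDR p-values per site, and a distance from the transcription start. The GC fraction in the authors' deposited table was not reported.

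Each inhibitor was compared with DMSO by limma 3.58.1 with a trend (6 libraries, pseudocount 1, mean of at least 10, Benjamini-Hochberg adjustment). Blebbistatin and Y27632 were set against each other in edgeR 4.0.16 (quasi-likelihood, TMM) fitted to the recovered reads of 9 libraries, since the tables were scaled separately. A fold change on the log2(value + 1) scale understates the change of low genes. Printed normalised counts are the 9 libraries scaled together by the median-of-ratios method. The fits were tested on simulated data. Alternatives were another pseudocount, filter, scaling and tool (edgeR, DESeq2 1.42.0), a fit of all 3 groups, a replicate block, and leaving out each library. The labels do not say what a replicate number shares. Correlations of deviations between same-numbered libraries were -0.206 to 0.087, which with 3 libraries per group cannot decide whether the numbers pair the samples.

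The named genes are all 9 members, Dusp2 and Dusp9, list genes called with an absolute log2 change of at least 1, and the 5 genes most like the member with the widest range. Mapk3, Emp1 and Ccnd1 fall outside this rule and were chosen after their values were seen. The members and lists were chosen with earlier results of these data known. The protein sequences of the members were not analysed here. Annotated noncoding genes overlap Dusp6, Dusp8 and Dusp16 (Gm34921, Gm32786 and Gm36328) and had at most 3.63 normalised counts.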

Additional observations from a re-analysis of the deposited data

Results flagged for a closer look

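Every one of the 9 phosphatases responded differently to the 2 inhibitors when these were compared directly by edgeR's quasi-likelihood test, with an adjusted p over all 14955 genes tested. All 9 were selected on RNA values of these libraries. On the log2 scale, blebbistatin minus Y27632, the differences were -1.53 for Dusp1 (adjusted p = 1.17e-11), -1.85 for Dusp8 (9.75e-08) and -1.22 for Dusp10 (5.52e-08). They were -0.98 for Dusp5 (adjusted p = 0.000162), -0.61 for Dusp6 (0.000249) and -0.40 for Dusp16 (0.000822). They were -0.34 for Dusp14 (adjusted p = 0.000518) and -0.22 for Dusp7 (0.0015), which were lower with both agents. Dusp4 alone had a positive difference, 0.47 (adjusted p = 0.00183). In each case all 3 libraries of one inhibitor lay beyond all 3 of the other. The share of all genes with such a separation was not computed, so nothing is read from it. With 53.1% of all genes also called in this comparison, a difference between the inhibitors was common.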

How the results depend on the processing

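Of 27 results on single members (9 genes in 3 comparisons), 25 kept their direction and their side of the threshold in all alternatives run. Of 359 alternative values, 357 did so. The exceptions were Dusp5 with blebbistatin under DESeq2 (log2 change 0.63, adjusted p 0.0560) and Dusp10 with blebbistatin without DMSO replicate 2 (-0.25, adjusted p 0.0287). Over all its alternatives the adjusted p ran from 0.00692 to 0.0560 for Dusp5 and from 0.0287 to 0.338 for Dusp10. Dusp5 was not tested with blebbistatin at a filter mean of 50. No result reversed. Leaving out each library in turn gave 6994 to 7394 genes called with blebbistatin (8 to 9 members). It gave 4304 to 4839 with Y27632 (9 members). In the direct comparison only inhibitor libraries were left out in turn, which gave 7166 to 7400 (9 members). With the replicate number as a block, 7604, 4633 and 7700 genes were called in these 3 comparisons, with 8, 9 and 9 members. Whether the numbers pair the samples is not known from the labels. The 2 Dusp14 sites of the blebbistatin ATAC list became 1 at an FDR of 0.01. Low read numbers limit Dusp5 and Dusp8.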
